A study of Mus musculus with 4 samples.

Results

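Expression of 9 choroid plexus genes was examined in the hippocampal transcriptome of control mice and of mice with perioperative neurocognitive disorder (PND). The genes were Ttr, Folr1, Kl, Clic6, Aqp1, Otx2, Slc4a5, Kcnj13 and Enpp2, chosen by symbol as genes known for high expression in choroid plexus epithelium. All 9 were found among the 29300 genes of the count table, and all 9 passed the filter on low counts that left 17144 genes for testing. Hippocampi were taken on day 1 after the operation from 4 C57BL/6 mice, described as male and aged 7 to 8 months, with 2 mice per group. Control mice (control 1 and control 2) were the sham group and received isoflurane and tramadol only. PND mice (PND 1 and PND 2) received the same anesthesia and analgesia followed by an open tibial shaft fracture with an intramedullary nail. The operation served as a model of memory decline after surgery. Both groups were wild-type. One library was made per mouse from poly(A) RNA.

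The choroid plexus is a sheet of secretory epithelium that lines part of each brain ventricle, produces cerebrospinal fluid and forms the barrier between blood and that fluid. The epithelium secretes carrier proteins, moves ions, water and vitamins from blood to fluid, and owes its identity in part to the homeodomain factor OTX2. In the lateral ventricle it is attached along the choroid fissure, next to the hippocampus. Hippocampal neurons and glia express most of these genes weakly, although Enpp2 is also made by oligodendrocytes and Kl by neurons. In tissue RNA, fewer choroid plexus cells and less RNA per cell cannot be told apart, and the labels do not record how much choroid plexus was in each sample.

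Between 15763432 and 18573386 reads were counted per library, over 24238 to 25324 detected genes. Genes of hippocampal neurons were abundant in every library, with a summed level over 12 genes of 5543 to 6721 CPM, the count relative to the library size after scaling by the trimmed mean of M values. The choroid plexus genes set control 1 apart. Their summed level was 295.2 CPM in control 1, 7000 CPM in control 2, 2707 CPM in PND 1 and 4350 CPM in PND 2. As a share of all counts in the library, the 9 genes took 0.029%, 0.690%, 0.274% and 0.443%, in the same order. The comparison of PND with control mice is therefore given with and without control 1 and control 2 for the choroid plexus genes, and over all 4 libraries for other genes.

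Ttr encodes transthyretin, the carrier of thyroid hormone and, with retinol-binding protein, of retinol, and is the most abundant transcript of choroid plexus epithelium. It had 1566 counts in control 1, 92825 in control 2, 30523 in PND 1 and 54938 in PND 2. These counts correspond to 90.8, 5071, 1911 and 3251 CPM. Control 1 was the lowest library and control 2 the highest, with both PND mice between them, so the groups overlapped. Within the control group the level of Ttr differed 55.9-fold, and within the PND group 1.70-fold. By count, Ttr was at rank 3 among all genes of the table in control 2 and at rank 2636 in control 1.

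Enpp2 encodes autotaxin, the secreted enzyme that makes lysophosphatidic acid. Its level was 166 CPM in control 1, 1516 CPM in control 2, 663 CPM in PND 1 and 872 CPM in PND 2. The order of the libraries was that of Ttr, with a smaller gap between the control mice, 9.13-fold, and the smallest gap of the 9 genes between the PND mice. Kl encodes klotho, which is a co-receptor for FGF23 in its membrane form and also a circulating protein. The level of Kl was 27.5, 175, 64.8 and 103 CPM in control 1, control 2, PND 1 and PND 2. Its 6.38-fold difference between the control mice was the smallest of the 9 genes.

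Folr1 encodes the folate receptor that carries folate across the epithelium into cerebrospinal fluid. It was measured at 1.39 CPM in control 1, 33.4 CPM in control 2, 5.95 CPM in PND 1 and 13.4 CPM in PND 2. Control 2 was again the highest library, 2.50-fold above PND 2. Aqp1, the water channel of the apical membrane, reached 1.51, 36.0, 6.20 and 12.4 CPM in the same order of libraries. Folr1 and Aqp1 were nearly equal in their differences between control mice, at 24.0-fold and 23.9-fold.

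Slc4a5, a sodium bicarbonate cotransporter of the epithelium, had 15 counts in control 1, 900 in control 2, 153 in PND 1 and 309 in PND 2. The corresponding levels were 0.870, 49.2, 9.58 and 18.3 CPM. The control mice differed 56.6-fold, about as much as for Ttr, with a 95% interval from 34.1 to 101.5 that covers counting error only. Kcnj13, which encodes the inwardly rectifying potassium channel Kir7.1, had 2 counts in control 1, 94 in control 2, 32 in PND 1 and 89 in PND 2. In CPM these were 0.116, 5.14, 2.00 and 5.27. Kcnj13 was the only one of the 9 genes that was not highest in control 2, although PND 2 and control 2 were nearly equal. With 2 counts in control 1, the 44.3-fold difference between the control mice has a counting interval from 11.9 to 371.1.

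Clic6, a member of the chloride intracellular channel family, had levels of 5.97 CPM in control 1, 94.4 CPM in control 2, 33.9 CPM in PND 1 and 56.3 CPM in PND 2. Its profile over the 4 libraries was the closest of the 9 to their median profile. Otx2 encodes the transcription factor of the set and had 1.16, 19.9, 9.83 and 18.2 CPM in control 1, control 2, PND 1 and PND 2. PND 2 lay just below control 2 for Otx2, with a ratio of control 2 to PND 2 of 1.10 against 1.56 for Ttr.

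**Figure D1:**
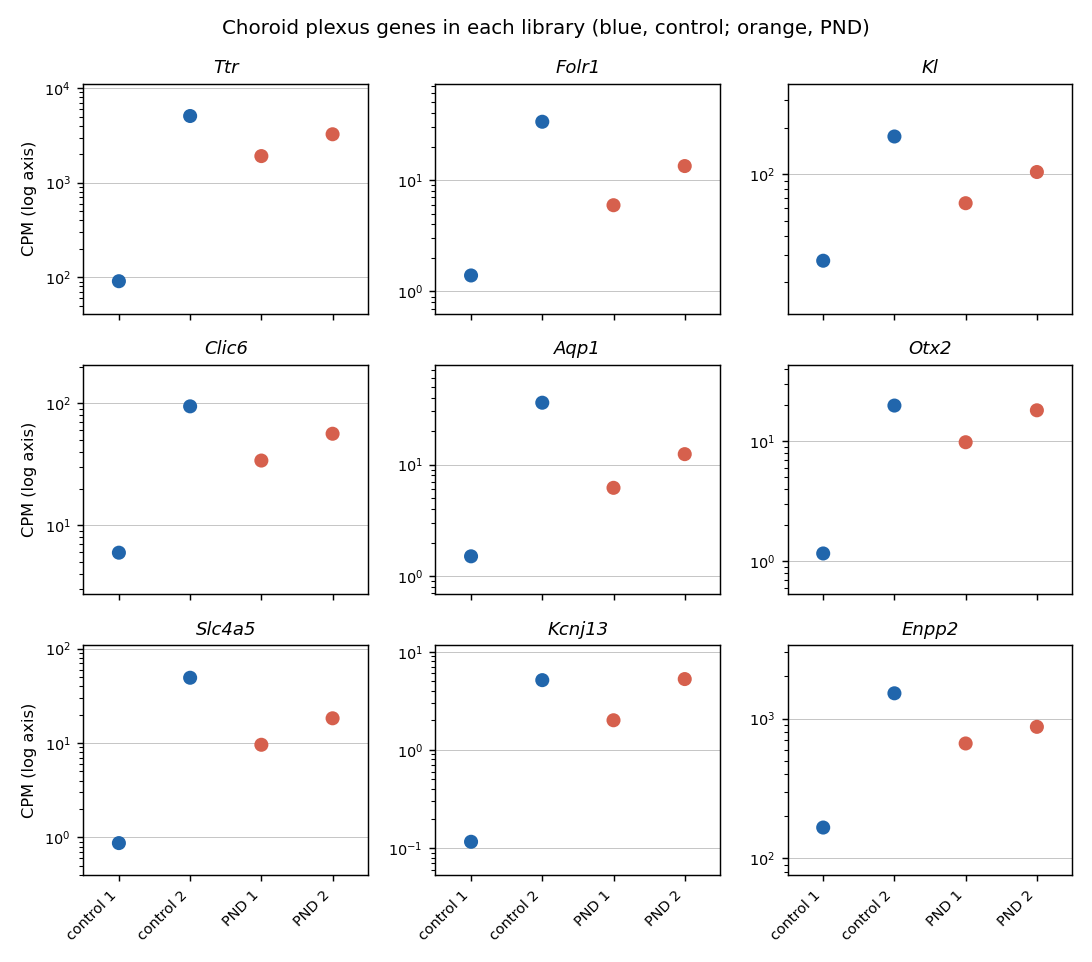
Level of each of the 9 choroid plexus genes in each library, in CPM on a logarithmic axis with its own range per gene (blue points, control mice; orange points, PND mice; 1 point per mouse). Control 1 is the lowest point in all 9 panels, and control 2 is the highest in all but Kcnj13.

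Divided by exon length, the level of Ttr was the highest of the 9 genes in every library, from 76.5 to 4276 CPM per kilobase. Enpp2 came next in every library, from 28.7 to 262.3 CPM per kilobase. The other 7 genes lay between 0.0913 and 24.1 CPM per kilobase. Clic6 and Kl exchanged places: Kl was the higher in control 1, at 2.95 against 1.53 CPM per kilobase, and Clic6 was the higher in control 2, at 24.1 against 18.8. Folr1 and Aqp1 stood side by side in every library, at 14.6 and 13.7 CPM per kilobase in control 2 and at 2.59 and 2.36 in PND 1. Over the 4 mice the range of Ttr overlapped that of Enpp2, the range of Enpp2 lay above those of the other 7 genes, and the ranges of these 7 overlapped each other.

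All 9 are annotated as protein-coding genes and lie at separate loci of the mm10 genome. The positions are chr18:20665250-20674324 for Ttr, chr7:101858331-101870788 for Folr1, chr5:150952607-150993817 for Kl, chr16:92485736-92541243 for Clic6 and chr6:55336432-55348555 for Aqp1. Otx2 is at chr14:48657679-48667644, Slc4a5 at chr6:83219828-83304945, Kcnj13 at chr1:87386363-87394729 and Enpp2 at chr15:54838898-54920146. The use of strand in counting is not given in the sources used here. Kcnj13 lies on the strand opposite to Gigyf2 and shares exon sequence with it, which covers 38.9% of the 75-nt windows of the Kcnj13 transcripts. Gigyf2 had 1319, 1430, 1350 and 1619 counts in control 1, control 2, PND 1 and PND 2, while Kcnj13 had 2, 94, 32 and 89. Otx2 overlaps Otx2os1 and Enpp2 overlaps Gm26684 on the opposite strand, and neither partner exceeded 11 counts in any library. Otx2 also overlaps the same-strand gene Gm49154.

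The first comparison was between mice of the same group. Ratios were taken on the log2 scale after adding 0.5 counts. Control 2 was above control 1 by a median of 4.55 over the 9 genes, against a median of -0.02 and a median absolute ratio of 0.14 over all genes tested. PND 2 was above PND 1 by a median of 0.88 over the 9 genes, against -0.00 with a median absolute ratio of 0.14. Each of these ratios compares 1 mouse with another and has no test. All 9 genes were higher in control 2 than in control 1 and higher in PND 2 than in PND 1.

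Few genes of the table differed as much between the control mice. A ratio at least as large as that of Ttr was found in 0.0233% of the genes tested, and one as large as that of Kl, the least extreme of the 9, in 0.525%. Of the 20 tested genes with the highest ratio of control 2 to control 1, 5 were Ttr, Slc4a5, Kcnj13, Folr1 and Aqp1, and 4 belonged to a list of other choroid plexus epithelium genes. Between the PND mice the 9 genes were less extreme. A ratio as large as that of Kcnj13 was found in 1.98% of the genes tested and one as large as that of Enpp2 in 19.6%.

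**Figure D2:**
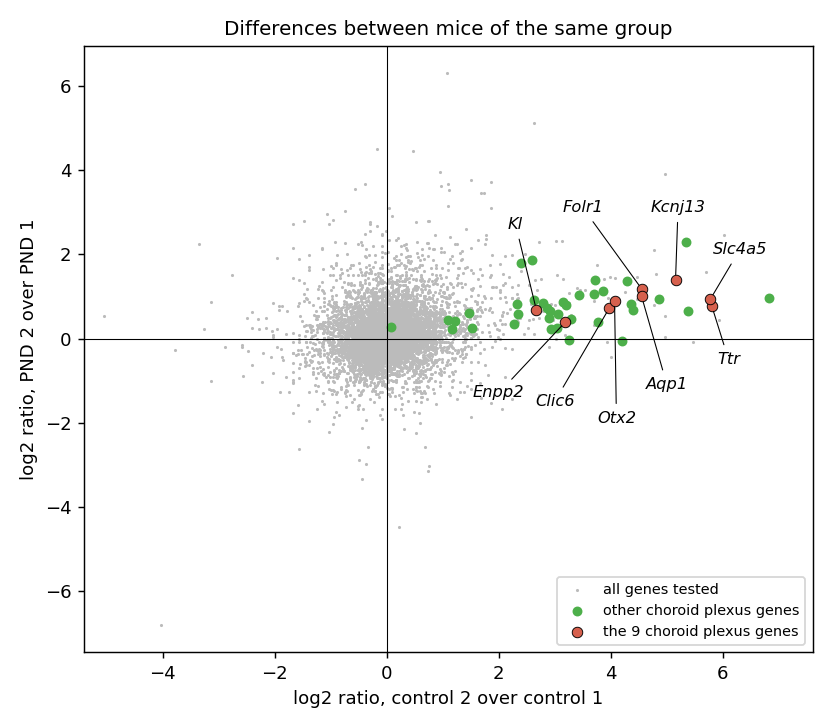
Log2 ratio of PND 2 to PND 1 (vertical) against the log2 ratio of control 2 to control 1 (horizontal), for all 17144 genes tested (gray), 36 other choroid plexus genes (green) and the 9 choroid plexus genes (orange, named). The 9 genes lie far to the right of the gray cloud, from 2.67 for Kl to 5.80 for Ttr, and above its center by less, from 0.39 for Enpp2 to 1.38 for Kcnj13.

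Of the 9 genes, 8 followed 1 order, with control 1 lowest, then PND 1, PND 2 and control 2. Over all genes tested, 2.6% had this order. Kcnj13 departed from it only in the exchange of PND 2 and control 2. Both PND mice lay between the control mice for 8 of the 9 genes, and the groups overlapped for all 9. By contrast, the groups did not overlap for 65.5% of all genes tested.

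The comparison of PND with control mice asked whether the operation changed these genes. None of the 9 was called changed with edgeR's quasi-likelihood test (Benjamini-Hochberg adjusted p under 0.05 with a fold change of 1.5 or more, or of 0.67 or less), while 9.01% of all genes tested were called. None of the 9 had an unadjusted p under 0.05, and DESeq2 called 0 as well. Their median log2 fold change was -0.16, against 0.01 over all genes tested. Their median standard error was 0.96, against 0.14. With 2 mice per group, an exact permutation test cannot give a two-sided p below 0.333, so the comparison rests on the fit across all genes. Whether replicates came from separate cages or operation days is not stated, and the p-values measure the spread between these 4 mice.

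For Ttr the fitted log2 fold change was -0.00 with a standard error of 1.32 (adjusted p = 1.0). Its 95% interval from -3.18 to 3.18 includes large changes in either direction. Aqp1 had the lowest estimate, -1.01 with a standard error of 1.04 (adjusted p = 0.518). Kcnj13 had the highest, 0.45 with a standard error of 0.96 (adjusted p = 0.765). The remaining estimates were -0.85 for Folr1, -0.85 for Slc4a5, -0.27 for Kl, -0.16 for Clic6, -0.13 for Enpp2 and 0.40 for Otx2, with adjusted p from 0.587 to 0.926. For all 9 genes the log2 ratio between the control mice was larger than the size of the fitted difference between groups. Between the PND mice the same held for 8 genes, and for Aqp1 the size of both was about equal, at 1.00 and 1.01.

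The direction of the difference depended on which mice were set against each other. PND 1 was above control 1 for all 9 genes, by a median of 2.50 on the log2 scale and by 1.24 for Kl to 4.40 for Ttr. PND 2 was below control 2 for 8 genes, with a median log2 ratio of -0.76 and a lowest value of -1.53 for Aqp1. For Kcnj13 this ratio was 0.04. Nothing in the labels says that mice of the same number share a litter, batch or day.

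**Figure D3:**
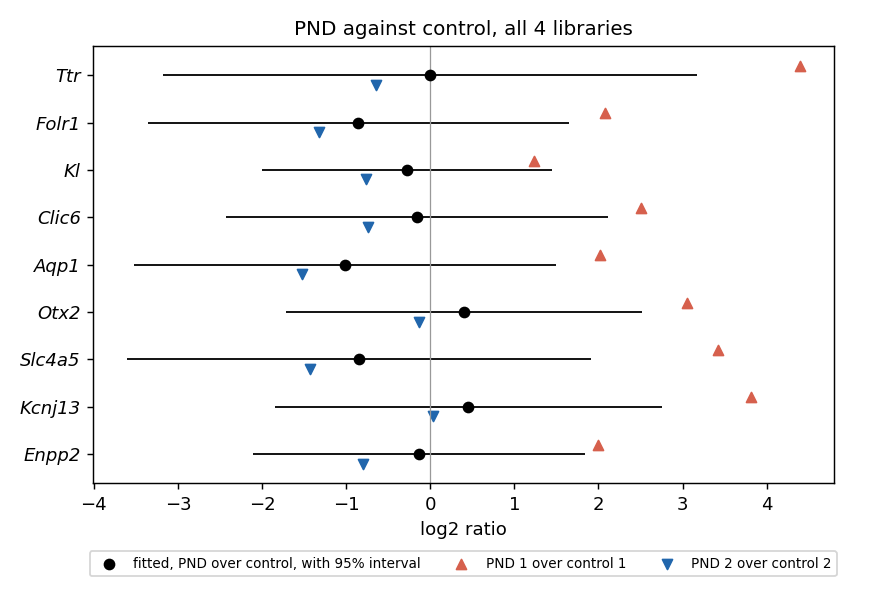
Fitted log2 fold change of PND over control mice for each gene (black points, with 95% intervals as lines), and the log2 ratio of PND 1 to control 1 (orange triangles) and of PND 2 to control 2 (blue triangles). All 9 intervals include 0, and the triangles lie on opposite sides of 0 for every gene but Kcnj13.

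Leaving out either control mouse changed the fitted differences, which are given as effect sizes only. Without control 1, 7 of the 9 genes were called lower in PND mice, against 3.12% of all genes tested, with adjusted p-values from 0.00559 to 0.028. The lowest were Aqp1 at -1.95, Slc4a5 at -1.82 and Folr1 at -1.79 on the log2 scale. Otx2, at -0.51, and Kcnj13, at -0.49, differed least. Without control 2, all 9 were called higher in PND mice, against 4.22% of all genes tested, with adjusted p-values from 0.00222 to 0.0304. The log2 fold change then ran from 1.61 for Kl to 4.89 for Kcnj13, with 4.82 for Ttr. Kcnj13 then had 2 counts in the remaining control mouse and passed the filter on low counts through the PND mice alone. In both fits the remaining control mouse was assumed to vary as the PND mice did. Without PND 1 and without PND 2, the medians of the 9 genes were 0.03 and -0.57.

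**Figure D4:**
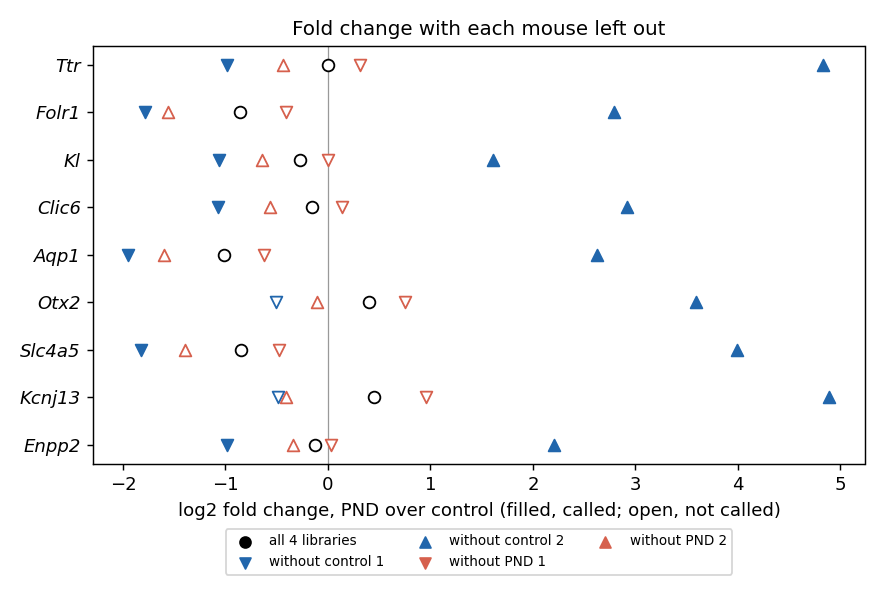
Log2 fold change of PND over control mice for each gene with all 4 libraries (black circles) and with each mouse left out (blue, a control mouse; orange, a PND mouse), filled where the gene was called changed. Without control 2 the points lie between 1.61 and 4.89, and without control 1 between -1.95 and -0.49. Where a mouse is left out, its group holds 1 mouse, and the fill is not read as a test. Without control 2, Kcnj13 passed the filter on low counts through the PND mice alone.

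Differences among the 9 genes remained when their common level was taken into account. A straight line was drawn for each gene through both control mice, with the level of Ttr as the measure of the common level, and each PND mouse was set against the line at its own level of Ttr. This description was chosen after the values were seen and has no test. Folr1, Aqp1 and Slc4a5 were below the line in both PND mice. The ratio of the measured to the expected level of Aqp1 was 0.440 in PND 1 and 0.532 in PND 2. For Folr1 it was 0.454 and 0.616, and for Slc4a5 0.517 and 0.580. These encode a water channel, a folate receptor and a bicarbonate cotransporter. Otx2 was above the line in both mice, with ratios of 1.23 and 1.39. Kcnj13 lay on it in PND 1 (1.03) and above it in PND 2 (1.60). Clic6 and Kl were slightly below the line, with ratios from 0.795 to 0.907, and Enpp2 lay on it in PND 1 (1.01) and below it in PND 2 (0.853).

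With the summed level of the 36 other choroid plexus genes in place of Ttr, Folr1, Aqp1 and Slc4a5 were again below the line in both PND mice, with ratios from 0.483 to 0.706. Otx2 (1.62 and 1.27) was again above it, and Kcnj13 was above it in both PND mice (1.40 and 1.45). Ttr itself, Clic6 and Enpp2 were above this line in PND 1 and below it in PND 2. The sum holds Igf2, which was highest in PND 2. Without Igf2, Folr1, Aqp1 and Slc4a5 stayed below (0.565 to 0.678), Otx2 and Kcnj13 above (1.34 to 1.71), and Ttr was above in both PND mice (1.31 and 1.07).

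Set against the geometric mean of the other 8 genes on the log2 scale, in place of a line, Slc4a5 showed no such shift. Its relative level was -2.63 in control 1, -1.11 in control 2, -1.85 in PND 1 and -1.79 in PND 2. Folr1 and Aqp1 were again lower in both PND mice than in either control mouse, with differences between group means of -0.65 and -0.80, and Otx2 and Kcnj13 were again higher. Ttr itself was higher in both PND mice (6.74 and 6.61) than in the control mice (4.86 and 6.42). Slc4a5 was below the line on Ttr and on the other choroid plexus genes, so its place differed between the line and the geometric mean. The line rests on 1 mouse at each end, and for Kcnj13 its lower end rests on 2 counts.

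**Figure D5:**
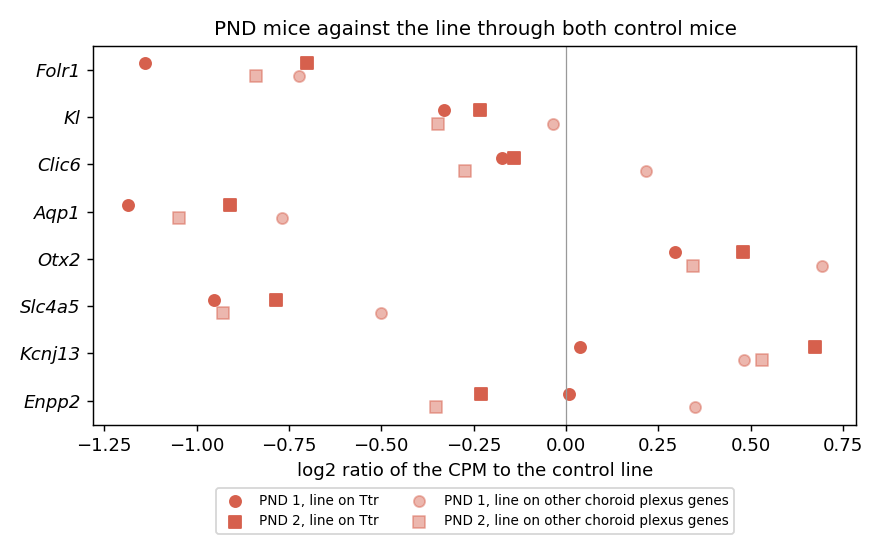
Log2 ratio of the measured level in each PND mouse to the level on the line through both control mice, with Ttr (full color) or the summed other choroid plexus genes (pale) as the common level. Folr1, Aqp1 and Slc4a5 are left of 0 at all 4 points, and Otx2 is right of 0 at all 4 points. Kcnj13 is right of 0 too, but its PND 1 point on the Ttr line is only at 0.04.

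Sequence upstream of the start sites was taken from the RefSeq promoter table (GRCm38.p6) for Aqp1, Kcnj13, Kl, Otx2 and Slc4a5, with 8 start sites in all. Since these genes moved together over the libraries, the 250 bases before each start were searched for TAATCC, the core recognized by OTX2, on both strands (GGATTA on the reverse strand). The letters occurred upstream of 1 of the 8 starts, which belongs to Otx2, and in 2054 (6.25%) of all 32851 promoters of the table. The match begins 211 bases before the start and is shown with its flanks, chr14:48665303-48665332 on the minus strand, with the motif in capitals. The upstream sequences of Kcnj13 (chr1:87394730-87394979, minus strand) and Aqp1 (chr6:55336049-55336298, plus strand) are shown because these genes lay on opposite sides of the control line described here. Neither held the letters.
Otx2: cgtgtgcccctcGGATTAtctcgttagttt
Kcnj13: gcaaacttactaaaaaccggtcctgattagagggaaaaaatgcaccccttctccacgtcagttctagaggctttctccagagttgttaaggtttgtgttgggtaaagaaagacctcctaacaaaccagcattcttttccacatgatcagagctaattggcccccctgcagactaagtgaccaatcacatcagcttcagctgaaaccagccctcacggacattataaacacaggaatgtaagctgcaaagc
Aqp1: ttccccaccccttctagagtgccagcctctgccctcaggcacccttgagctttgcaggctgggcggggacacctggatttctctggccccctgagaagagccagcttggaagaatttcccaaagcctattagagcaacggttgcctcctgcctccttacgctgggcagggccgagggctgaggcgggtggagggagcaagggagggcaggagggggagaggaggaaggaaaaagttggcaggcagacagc
The Kcnj13 sequence has a GC content of 45.2%, and that of Aqp1 62.0%. A match to these letters is a description of the sequence and not a binding site.

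Most other genes of the epithelium, 27 of 36, had the order of Ttr over the libraries. Of these 36 further choroid plexus genes, none was called in the comparison of PND with control mice, the lowest adjusted p-value was 0.318 and the median log2 fold change was -0.08. All 36 were higher in control 2 than in control 1, 35 of them by more than 1 on the log2 scale. The ratios ran from 0.07 to 6.83, with Tmem72 the highest. Between the PND mice 34 of the 36 were higher in PND 2. Igf2, a growth factor of the epithelium and the meninges, had 33.0 CPM in control 1, 199.1 in control 2, 66.8 in PND 1 and 245.1 in PND 2. Its binding protein Igfbp2 had 23.0, 115.5, 36.3 and 64.0 CPM. Igf2 therefore was highest in PND 2, while Igfbp2 kept the order of Ttr.

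The non-members whose profile over the 4 libraries was nearest to the median profile of the 9 genes were Cldn2, Slc28a3, Lmx1a, 1500015O10Rik, Wdr86, Prr32, Col8a1 and F5. Likeness was the Euclidean distance between centered log2 CPM, and the distances were from 0.21 for Cldn2 to 0.58 for F5. Cldn2, a tight junction protein of leaky epithelia, had 0.986 CPM in control 1, 20.9 in control 2, 6.45 in PND 1 and 11.4 in PND 2. Lmx1a is a transcription factor of the embryonic roof plate, from which the choroid plexus arises, and its level was 0.174, 2.73, 0.939 and 1.24 CPM. Both genes had the order of Ttr. Within the set, the distance to the median profile was 0.08 for Clic6, 1.38 for Kcnj13 and 1.58 for Ttr.

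Among genes that work with the members or belong to their families, the order of Ttr was found in 1 of 9 genes of thyroid hormone and retinol carriage, in 1 of 4 of the chloride intracellular channel family and in none of the other 5 lists of this kind. Thyroid hormone and retinol carriage had 9 genes tested, of which 0 were called higher and 1 lower. Over all genes tested, 9.01% were called, the share against which this and the later lists are set. The gene called was Thra, a thyroid hormone receptor, with 969.6 and 1043 CPM in the control mice and 636.9 and 682.0 CPM in the PND mice. Its log2 fold change of -0.61 (adjusted p = 0.00446) lost the call with GC content and length offsets (-0.35, adjusted p = 0.0506). No gene of 7 tested for folate transport and handling was called. Mthfd1, an enzyme of folate metabolism, had 54.9 and 54.2 CPM in control mice and 47.2 and 46.2 CPM in PND mice, a log2 fold change of -0.22 (adjusted p = 0.0668).

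Among the other aquaporins 3 were tested, and Aqp4, the water channel of astrocyte endfeet, was the 1 called. It had 85.9 and 70.0 CPM in control mice against 132.6 and 126.7 in PND mice. The groups did not overlap, with a log2 fold change of 0.73 (adjusted p = 0.00612) and, with the offsets, of 0.58 (adjusted p = 0.0527). For bicarbonate and cerebrospinal fluid ion transport, 1 of 15 genes was called higher and 0 lower. This was Slc4a7, a bicarbonate cotransporter related to Slc4a5, with 42.7 and 36.0 CPM in control mice and 73.5 and 80.5 CPM in PND mice. Its log2 fold change was 0.97 (adjusted p = 0.00446), and the call held with the offsets (adjusted p = 0.0384). Slc4a7 was higher in both PND mice than in either control mouse, whereas Slc4a5 lay between the control mice.

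The chloride intracellular channel family had 1 of 4 genes called higher, Clic5, by 0.68 on the log2 scale (adjusted p = 0.0237), and by 0.48 with the offsets, where the call was lost (adjusted p = 0.145). For klotho and FGF23 signalling, 0 of 5 genes were called. Fgfr1, a receptor that klotho binds, differed by -0.30 (adjusted p = 0.0136) and missed the fold threshold. For lysophosphatidic acid signalling, the pathway of Enpp2, 1 of 12 genes was called higher. The receptor gene Lpar4 had 23 and 16 counts in control mice and 51 and 48 in PND mice, a log2 fold change of 1.45 (adjusted p = 0.0215). With the offsets its log2 fold change was 0.23 (adjusted p = 0.744).

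Markers of neighboring tissues were examined beside these results, and their part in the result was not tested. Their counts of called genes are likewise set beside the 9.01% of all genes tested. A count of 1 or 2 genes in lists this small is not read as a result about the list. Ependymal cells, which line the ventricles, had 0 of 14 genes called and a summed level of 51.5, 72.0, 84.8 and 63.5 CPM in control 1, control 2, PND 1 and PND 2. Their most abundant genes, Foxj1 and Ccdc153, had log2 fold changes of 0.08 and 0.79 (adjusted p = 0.844 and 0.159). Control 1 was the lowest library for this list too, within a narrow range, and 2 of its 14 genes had the order of Ttr. Meningeal and fibroblast genes, a list that also holds Igf2, had a summed level of 297.5, 482.7, 298.6 and 828.8 CPM. Without Igf2 the sums were 264.4, 283.6, 231.9 and 583.7 CPM, so the control mice then differed little. The list had a median log2 fold change of 1.11. These genes were highest in PND 2 with and without Igf2, none of the 14 had the order of Ttr, and 1 was called higher, Ogn, by 1.79 (adjusted p = 0.04) and not called with the offsets (0.81, adjusted p = 0.331).

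Of 15 genes of the pineal gland and retina, 7 passed the filter on low counts. The 2 called, Rbp3 and Pde6b, passed it through the PND libraries alone, so their calls are given as values only. Rbp3, a retinoid-binding protein of photoreceptors and pineal cells, had 2 and 1 counts in control mice and 21 and 71 in PND mice (adjusted p = 0.0125). Pde6b had 7 and 4 counts in control mice and 15 and 20 in PND mice, a log2 fold change of 1.76 (adjusted p = 0.0411) and of 1.70 with the offsets (adjusted p = 0.115). The summed level of this list was 13.3, 16.0, 13.3 and 21.8 CPM. Thalamus genes had 2 of 11 called higher, Zic4 by 1.65 (adjusted p = 0.00492) and Zic1 by 1.51 (adjusted p = 0.00446). Both calls held with the offsets, at 1.65 and 1.45 (adjusted p = 0.0289 for each). The summed level of this list was from 220.8 to 291.7 CPM. Mature oligodendrocytes, with Ermn alone called higher by 0.88 among 10 genes (adjusted p = 0.0454) and by 0.11 with the offsets (adjusted p = 0.859), summed to 6578, 5680, 6528 and 4249 CPM. Oligodendrocyte genes were thus high in control 1, where Enpp2 was at its lowest.

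Of 11 endothelial genes 1 was called higher, Slco1a4, by 0.87 (adjusted p = 0.0137) and by 0.26 with the offsets (adjusted p = 0.366), and the list summed to 303.6 to 434.3 CPM. Of 3 red blood cell genes none was called, and the list stayed between 5.24 and 11.2 CPM. Of the 12 genes of hippocampal neurons, 2 were called lower, Wfs1 with a log2 fold change of -0.70 (adjusted p = 0.0085) and Fibcd1 with -0.64 (adjusted p = 0.00428). Neither call held with the offsets, where the log2 fold changes were -0.44 and -0.35 (adjusted p = 0.0992 and 0.0648). The summed neuronal level was 6721 CPM in control 1 and 6480 CPM in control 2. The control mice thus differed little in neuronal genes, while the 9 choroid plexus genes summed to 295.2 CPM in the former and 7000 CPM in the latter.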

How the data were processed

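The authors sequenced poly(A) RNA of 4 hippocampi (150 nt, paired-end), aligned the reads with HISAT to the mm10 genome, and deposited unnormalized read counts for each gene and mouse. The submitters' processing notes also name HISAT2 2.1.0, Bowtie2 2.2.3, TopHat2 and HTSeq 0.6.0. The authors' own columns (mean, fold change, p-values, significance mark) were not used. Counts were tested in R 4.3.3 with edgeR 4.0.16 (filterByExpr at a minimum count of 10, TMM, glmQLFit, glmQLFTest, condition as the only term, all 4 libraries). P-values were adjusted over the 17144 genes tested. DESeq2 1.42.0 and GC content and length offsets (mgcv 1.9.3) served as alternatives. On simulated counts for this comparison (16830 genes), 199 of 200 changed genes were recovered. Symbols of 24 date-like names were restored, and exons and overlaps were taken from GENCODE M21.

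The 9 genes and all lists were chosen with earlier results of these data known. From each other list, up to 4 genes were named: those with the largest fold change at an adjusted p-value under 0.05 or, where none passed, the 2 of highest mean CPM. One gene that this rule names is not reported here. The 8 most alike genes needed a mean of at least 1 CPM. Folr1, Clic6 and Enpp2 had no entry in the promoter table, and Ttr was not searched.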

Additional observations from a re-analysis of the deposited data

How the results depend on the processing

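The number of the 9 genes called was 0 under DESeq2 size factors, library totals only, no filter on low counts and the DESeq2 Wald test. It was also 0 under GC content and length offsets, and under the replicate block with or without these offsets. Fits with 1 mouse left out hold 1 mouse in a group and are given as effect sizes. Leaving out each mouse in turn moved the median log2 fold change from -1.07 to 2.91. By gene, the leave-one-out values ran from -0.98 to 4.82 for Ttr, -1.79 to 2.79 for Folr1, -1.07 to 1.61 for Kl, -1.07 to 2.91 for Clic6, -1.95 to 2.62 for Aqp1, -0.51 to 3.59 for Otx2, -1.82 to 3.99 for Slc4a5, -0.49 to 4.89 for Kcnj13 and -0.99 to 2.21 for Enpp2. With library totals only, Ttr was at 0.0456.

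Same-numbered mice had correlated deviations of 0.22, a value that 2 pairs force to be equal and that does not settle whether they shared a batch or day. With the replicate block the median was 0.56, with Ttr at 1.83, Kl at 0.17, Clic6 at 0.56 and Enpp2 at 0.59. With the block and the offsets together it was 0.34, with Ttr at 1.62, Kl at 0.0932, Clic6 at 0.64 and Enpp2 at 0.34. None of these values was called, and the cause of the reversals was not tested.

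The share of all genes called was 3.8% with no filter on low counts, 0.754% with GC content and length offsets, 2.21% with the block and the offsets, 26.0% with no fold threshold, and 5.64% to 10.8% when 1 mouse was left out. The median ratio of control 2 to control 1 stayed between 4.50 and 4.56 on the log2 scale, and that of PND 2 to PND 1 between 0.84 and 0.89, under the alternative scalings. Depth limits Kcnj13 most, with 2 counts in control 1.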
